A study of Homo sapiens with 8 samples.

Results

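Inflammatory cytokines and chemokines are the secreted signals with which airway epithelial cells call in and activate immune cells. Followed here were 10 such genes, IL1A, IL1B, IL6, IL8 (CXCL8), CXCL1, CXCL2, CXCL3, CCL2, CSF2 and LIF, listed by gene symbol. All 10 genes were found among the 25411 genes listed, with IL8 under its current symbol CXCL8.

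Expression was read by RNA-Seq in the immortalised bronchial epithelial line BEAS-2B, of human origin, in 4 groups of 2 libraries each. Untreated cells (UT) received no nickel. Nickel-exposed cells (Ni-E) spent 6 weeks in 100 µM NiCl2, a nickel salt that dissolves readily. In Ni-W, the nickel-washed-out cells, that exposure was followed by growth from a single cell in medium free of nickel for more than 6 months. HCl3 cells share the treatment description of Ni-W, but neither their time without nickel nor their relation to Ni-W was given. A washed-out population comes from a single colony, so the effect of past nickel and the character of the founding cell cannot be told apart. Experiment numbers were given for Ni-E (2) and for the HCl3 libraries (3 and 4) only, and experiment and group cannot be told apart either. The study's methods call the RNA samples of a group biological replicates, but neither they nor the labels state that they came from separate cultures, so the P values measure the spread between these libraries.

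IL-1 alpha and IL-1 beta open the cascade. They bind the IL-1 receptor and, through the adaptor MYD88 and the IRAK kinases, activate the transcription factors NF-kB and AP-1, which switch on the other genes of the group. IL-6 and LIF signal through the shared receptor subunit gp130 (IL6ST) to STAT3. CXCL8, CXCL1, CXCL2 and CXCL3 attract neutrophils, CCL2 attracts monocytes, and CSF2 (GM-CSF) sustains granulocytes and macrophages.

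Libraries held between 26383920 and 45692298 counted reads, and 3 reads, the smallest number treated as seen, made up between 6.57e-06 and 1.14e-05% of a library. The 10 genes together took between 0.0483 and 0.0784% of the reads. Levels are given as RPKM, the reads of a gene scaled by transcript length and by the total mapped in that library. The floor of 3 reads covers counting error only, whereas the intervals of the fold changes come from the fits and include the spread between libraries. Of 8 epithelial markers, 5 were above 3 reads in at least 1 library, while KRT5, KRT14 and TP63, which define basal airway cells, were at or under it in all 8 libraries. The summed RPKM of the epithelial markers was 337.6 to 368.7 in UT, 372.3 to 435.4 in Ni-E, 466.1 to 494.2 in Ni-W and 522.3 to 557.6 in HCl3. Most of this sum was KRT8 and KRT18, while CDH1 stood between 0.01 and 0.11 RPKM in all libraries. Of 8 leukocyte markers, CD3E, MS4A1 and LYZ were at or under 3 reads in every library, and the sum over the list was 17.34 to 22.9 in all groups. Endothelial markers summed to between 0.01 and 0.12, with PECAM1 at or under 3 reads. The 6 fibroblast and smooth muscle markers summed to 359 to 414 in UT, 190.9 to 354.9 in Ni-E, 245.4 to 270.3 in Ni-W and 463.3 to 487.1 in HCl3, mostly COL1A1. Within this list ACTA2 was called higher than in UT in Ni-E (log2 fold change 2.27), Ni-W (2.04) and HCl3 (2.41), COL1A2 lower in Ni-E (-2.69) and higher in HCl3 (3.21), COL3A1 higher in HCl3 at few reads, COL1A1 lower in Ni-W (-0.69) and PDGFRB lower in Ni-E (-0.78). The part of these shifts in the results below was not tested. In bulk RNA, fewer cells that express a gene and less RNA of it per cell cannot be told apart.

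The 2 libraries of a group did not carry equal levels of these genes. UT replicate 1 and Ni-W replicate 1 were above their replicate 2 in all 10 genes. In Ni-E, replicate 2 was above replicate 1 in 9 of the 10, by up to 2.07-fold in IL6. In HCl3, replicate 2 was higher for 6 genes and lower for 4, the least uneven of the 4 pairs, with ratios of replicate 2 to replicate 1 from 0.945 upward. Over 13856 genes that averaged at least 10 reads, replicate 1 was the higher library for 48.8% in UT and 51.3% in Ni-W, and replicate 2 for 55.3% in Ni-E. Results that rest on 1 of these libraries are given with and without it.

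Promoter sequences are shown for the IL-1 genes and IL6, the members with the largest changes, and for the chemokines that carry the same type of NF-kB motif. They are the 250 bases before the transcription start in RefSeq (GRCh38.p14), written along the gene from 5′ to 3′, and 8 of the 10 genes had an entry. Capitals mark matches, on either strand, to the NF-kB motifs GGGNNTTTCC and GGAATTTCC, the AP-1 motif TGANTCA and the C/EBP motif TTNNGCAAT. A match describes letters and is not shown to be a bound site.

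IL6 (chr7:22726950-22727199, plus strand): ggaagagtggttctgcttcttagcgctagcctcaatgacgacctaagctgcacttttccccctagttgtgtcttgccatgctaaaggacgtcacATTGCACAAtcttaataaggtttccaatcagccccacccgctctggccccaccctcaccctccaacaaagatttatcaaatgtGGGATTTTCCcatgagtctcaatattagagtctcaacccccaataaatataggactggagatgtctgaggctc
IL1A (chr2:112784494-112784743, minus strand): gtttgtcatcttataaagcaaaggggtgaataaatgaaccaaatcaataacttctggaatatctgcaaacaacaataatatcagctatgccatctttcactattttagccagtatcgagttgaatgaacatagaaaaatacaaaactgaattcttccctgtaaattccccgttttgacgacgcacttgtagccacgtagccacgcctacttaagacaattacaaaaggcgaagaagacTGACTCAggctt
IL1B (chr2:112836780-112837029, minus strand): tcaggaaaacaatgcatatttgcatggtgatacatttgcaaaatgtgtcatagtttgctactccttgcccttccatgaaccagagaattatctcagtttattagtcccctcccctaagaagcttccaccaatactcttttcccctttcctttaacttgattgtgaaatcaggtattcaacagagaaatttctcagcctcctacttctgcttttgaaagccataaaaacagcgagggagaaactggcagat

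In IL6 the NF-kB match began 73 bases and the C/EBP match 156 bases before the start. In IL1A an AP-1 match began 12 bases before the start shown here. The other IL1A start listed by RefSeq had matches 105 and 55 bases before it. The windows of the 2 starts overlap, and the match at 105 bases is the same site as the match at 12. The IL1B window held none of these motifs, nor did the CSF2 window. For the CXC chemokines the 60 bases around the NF-kB match are shown.

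CXCL8 (chr4:73740453-73740512, plus strand): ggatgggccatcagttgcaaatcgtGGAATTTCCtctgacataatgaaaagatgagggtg
CXCL1 (chr4:73869289-73869348, plus strand): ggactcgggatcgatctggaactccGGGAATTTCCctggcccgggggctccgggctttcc
CXCL2 (chr4:74099239-74099298, minus strand): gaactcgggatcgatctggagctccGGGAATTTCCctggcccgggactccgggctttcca
CXCL3 (chr4:74038734-74038793, minus strand): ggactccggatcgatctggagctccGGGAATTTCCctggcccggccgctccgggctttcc

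With no gap allowed, the windows of CXCL1 and CXCL3 shared 56 of 60 bases position by position. CXCL1 and CXCL2 shared 49, and CXCL2 and CXCL3 shared 48, whereas CXCL8 shared 19 to 22 with each of them. Past the motif the bases of CXCL2 are shifted against those of CXCL1 and CXCL3, which lowers its counts. In these 3 genes both NF-kB motifs matched at overlapping positions, 77 to 79 bases before the start, and in CXCL8 the NF-kB match began 91 and an AP-1 match 137 bases before it. Among 35116 RefSeq promoters of the same length, GGGNNTTTCC occurred in 1.73%, GGAATTTCC in 0.413%, TGANTCA in 6.57% and TTNNGCAAT in 2.04%. ACGTG, the core of the hypoxia response element, occurred in 18.5% of them. Among the members it was in the overlap of the IL1A windows, the same site 58 and 151 bases before the respective start.

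Each pair of groups was compared with DESeq2 across all genes, and a gene was called when its adjusted P was under 0.05 and its change at least 1.5-fold. In Ni-E, 2 of the 10 genes were called higher than in UT, IL1A and IL6, and none lower, against a background of 3.75% of the 14478 genes tested called higher and 2.05% lower. In Ni-W, IL1A, IL1B and IL6 were called higher, 3 of 10 against a background of 10.9% higher and 4.83% lower among 15826 genes. In HCl3, IL1A, IL1B, IL6 and LIF were called higher, 4 of 10 against 11.1% higher and 3.74% lower among 15766 genes. The median log2 fold change of the 10 genes against UT was 0.37 (Ni-E), 0.31 (Ni-W) and 0.44 (HCl3), where the medians over all genes tested were -0.00, 0.01 and 0.01. All 10 genes passed the filter on low counts in each comparison. The 3 comparisons use the same UT libraries, so a change shared by them is not an independent repeat.

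**Figure D1:**
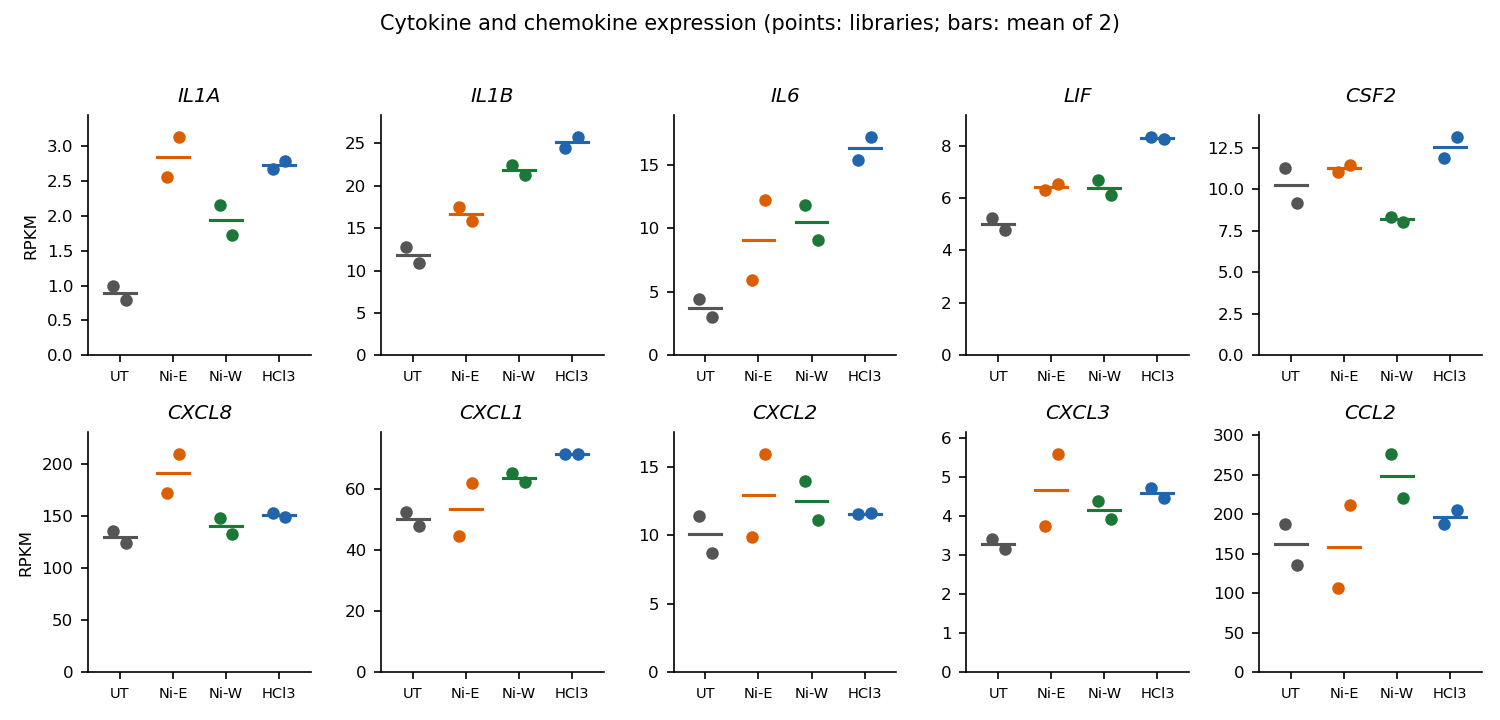
RPKM (vertical axis, from 0, a separate scale for each gene) of the 10 genes in the 4 groups, with points for single libraries and bars for the mean of the 2. IL1A, IL1B, IL6, LIF and CXCL3 in UT lie below every library of the other groups, and the share of all genes with that order was not counted. The Ni-E libraries of CCL2, at 107.08 and 211.13, lie on both sides of its UT libraries.

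The IL-1 genes lie next to each other on chromosome 2 (hg19, IL1A at 113531492 to 113542971 and IL1B at 113587337 to 113594356, both on the minus strand). IL1A encodes IL-1 alpha, an alarm signal that is active without processing and is released from damaged cells. Its RPKM was 0.99 and 0.8 (UT), 2.56 and 3.14 (Ni-E), 2.16 and 1.73 (Ni-W), and 2.68 and 2.79 (HCl3). No UT library reached the level of any other library. These values rest on 69 and 123 reads in UT and on 176 to 351 reads elsewhere. The log2 fold change against UT was 1.60 ± 0.27 (SE) in Ni-E (adjusted P 2.06e-07), 1.08 ± 0.28 in Ni-W (0.000908) and 1.54 ± 0.25 in HCl3 (6.88e-09), or 3.04-fold, 2.11-fold and 2.92-fold. The call in Ni-E was lost with limma (1.02, adjusted P 0.0848), which called 0 of 17794 genes in that comparison. The call in Ni-W was lost without Ni-W replicate 1 (log2 fold change 0.92, adjusted P 0.24). In Ni-W IL1A was lower than in Ni-E by log2 -0.54 ± 0.23 (adjusted P 0.0433), which was under 1.5-fold and was called after removal of trends with GC content and length (-0.62, adjusted P 0.0187).

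IL1B encodes IL-1 beta, which is made as an inactive precursor that caspase-1 cleaves. It was the more abundant of the pair per length in every library, at 12.82 and 10.9 RPKM (UT), 17.51 and 15.87 (Ni-E), 22.49 and 21.26 (Ni-W), and 24.42 and 25.79 (HCl3). The 4 groups did not overlap, and their means stood in the order UT, Ni-E, Ni-W, HCl3. In Ni-E the log2 fold change was 0.44 ± 0.16 (95% interval 0.12 to 0.75), with an adjusted P of 0.0597. It was 0.84 ± 0.14 in Ni-W (adjusted P 1.1e-07) and 1.02 ± 0.14 in HCl3 (1.48e-12), or 1.8-fold and 2.03-fold, and Ni-W set directly against Ni-E gave 0.39 ± 0.13 (0.00921, under 1.5-fold). The IL1B calls in Ni-W and HCl3 stayed in all 12 and 13 alternative settings that kept the 1.5-fold threshold.

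IL6 (chromosome 7, 22766766 to 22771621, plus strand) encodes interleukin-6, the main inducer of the acute phase response. Its RPKM was 4.47 and 3.04 (UT), 5.9 and 12.2 (Ni-E), 11.86 and 9.09 (Ni-W), and 15.42 and 17.22 (HCl3). The UT libraries were the lowest and the HCl3 libraries the highest, and the Ni-E libraries were far apart, the higher of them above both Ni-W libraries. In Ni-W the log2 fold change was 1.44 ± 0.24 (adjusted P 2.92e-08, 2.71-fold) and in HCl3 it was 2.05 ± 0.20 (1.12e-22, 4.14-fold with a 95% interval from 3.16). Both calls stayed in all 12 and 13 alternative settings that kept this threshold, and at 2-fold.

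The rise of IL6 in Ni-E was 1.20 ± 0.31 (adjusted P 0.00235, 2.3-fold). It rested on single libraries, since it was 0.61 ± 0.41 without Ni-E replicate 2 (adjusted P 0.586) and 0.95 ± 0.40 without UT replicate 2 (0.195). The adjusted P was 0.0528 with the replicate suffix as a block, 0.151 when only genes averaging at least 10 reads were kept, and 0.258 with limma. In this comparison limma called 0 of 17794 genes.

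LIF (chromosome 22, 30636436 to 30642840, minus strand) encodes leukemia inhibitory factor, a member of the IL-6 family. It stood at 5.24 and 4.77 RPKM (UT), 6.3 and 6.54 (Ni-E), 6.67 and 6.1 (Ni-W), and 8.34 and 8.26 (HCl3). HCl3 lay above all other libraries and Ni-E and Ni-W overlapped. The log2 fold change was 0.68 ± 0.13 in HCl3 (adjusted P 2.69e-06, 1.6-fold). It was 0.30 ± 0.15 in Ni-E (0.197) and 0.32 ± 0.15 in Ni-W (0.0836), neither of which passed. With trends of GC content and length removed, the HCl3 value was 0.54 ± 0.11 (3.05e-06), which is under 1.5-fold.

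CSF2 (chromosome 5, 131409485 to 131411863, plus strand) was measured at 11.31 and 9.17 RPKM (UT), 11.08 and 11.46 (Ni-E), 8.34 and 8.05 (Ni-W), and 11.91 and 13.18 (HCl3). Ni-W was the lowest group and HCl3 the highest, without overlap with UT. Neither difference from UT passed the test, with log2 fold changes of -0.36 ± 0.22 in Ni-W (adjusted P 0.214) and 0.23 ± 0.20 in HCl3 (0.407).

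**Figure D2:**
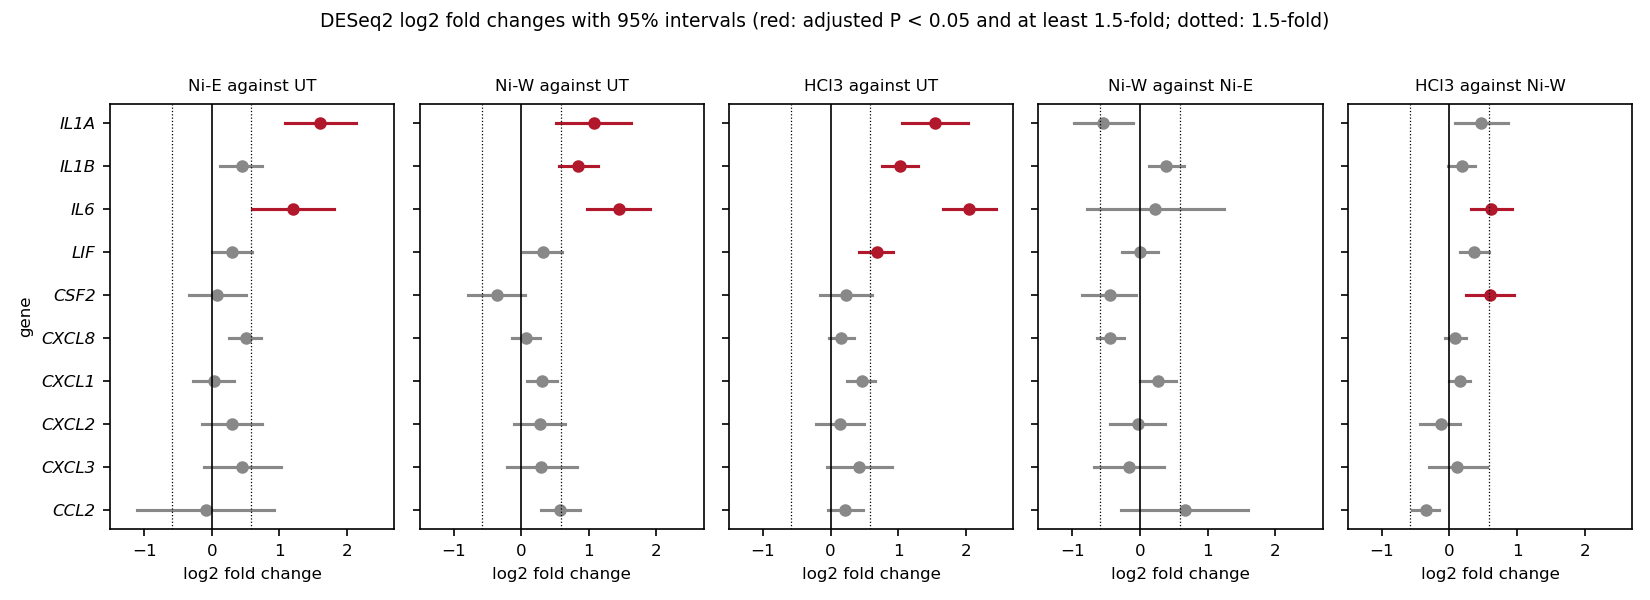
Log2 fold change of each gene (horizontal axis) with its 95% interval in the 5 comparisons, with called genes in red and dotted lines at 1.5-fold. IL6 has the largest value against UT in Ni-W (1.44) and HCl3 (2.05) and IL1A in Ni-E (1.60), while the chemokines CXCL8, CXCL1, CXCL2, CXCL3 and CCL2 are grey in every panel.

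None of the 4 CXC chemokines was called in any of the 5 comparisons. CXCL8 (chromosome 4, 74606223 to 74609433, plus strand), the main neutrophil attractant of human epithelium, stood at 136.26 and 124.2 RPKM (UT), 172.66 and 210.06 (Ni-E), 148.3 and 132.74 (Ni-W), and 152.87 and 148.99 (HCl3). Ni-E lay above every other library, and UT and Ni-W overlapped. The log2 fold change in Ni-E was 0.50 ± 0.12 (adjusted P 0.000958), or 1.41-fold, under the 1.5-fold threshold, and 0.62 (0.0059) without Ni-E replicate 1. It was 0.07 ± 0.11 in Ni-W (0.667) and 0.16 ± 0.09 in HCl3 (0.198), and Ni-W was below Ni-E by log2 -0.44 ± 0.11 (0.000177, under 1.5-fold).

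CXCL1, CXCL2 and CXCL3 are close copies in the same cluster (chromosome 4, 74735109 to 74737019 on the plus strand, and 74962754 to 74964997 and 74902312 to 74904490 on the minus strand). Of the 50-base windows of their transcripts, 5.33% in CXCL1, 10.1% in CXCL2 and 3.02% in CXCL3 occurred in another of the 3 genes, and reads with several alignments had been removed, so these counts are uncertain to that extent. The other 7 members shared no such window.

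CXCL1 stood at 52.6 and 47.89 RPKM (UT), 44.78 and 62.14 (Ni-E), 65.24 and 62.38 (Ni-W), and 71.62 and 71.61 (HCl3). The HCl3 libraries were the highest, and the Ni-E libraries lay on both sides of UT. It passed the P value threshold at less than 1.5-fold in Ni-W (log2 value 0.31 ± 0.11, adjusted P 0.0253) and HCl3 (0.46 ± 0.10, 0.00011). In HCl3 it was 0.63 with trends of GC content and length removed, which is past 1.5-fold.

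CXCL2 stood at 11.45 and 8.72 RPKM (UT), 9.9 and 15.96 (Ni-E), 13.96 and 11.12 (Ni-W), and 11.54 and 11.63 (HCl3). CXCL3 stood at 3.42 and 3.15 (UT), 3.75 and 5.6 (Ni-E), 4.38 and 3.93 (Ni-W), and 4.72 and 4.46 (HCl3). For CXCL3 every UT library was the lowest, but neither gene passed in any comparison. Against UT the log2 fold changes of CXCL2 were between 0.14 and 0.30 and those of CXCL3 between 0.30 and 0.45, and the 95% intervals in Ni-E, -0.15 to 0.74 for CXCL2 and -0.12 to 1.02 for CXCL3, leave room for a change of 1.5-fold.

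CCL2 (chromosome 17, 32582296 to 32584220, plus strand) encodes the chief attractant of monocytes and was, with CXCL8, the most abundant member. It stood at 188.29 and 136.31 RPKM (UT), 107.08 and 211.13 (Ni-E), 276.52 and 220.65 (Ni-W), and 187.67 and 205.9 (HCl3). Ni-W lay above all other libraries. The log2 fold change of Ni-W against UT was 0.58 ± 0.15 (adjusted P 0.00075), or 1.49-fold, immediately under the threshold, and it passed it in 5 of 12 alternative settings, among them the replicate block (0.59, adjusted P 5.89e-11) and the removal of GC and length trends (0.78). In Ni-E the value was -0.09 ± 0.51 (0.948). It was -0.64 without Ni-E replicate 2 and 0.31 without Ni-E replicate 1, so the 2 Ni-E libraries pointed in opposite directions. In HCl3 it was 0.22 ± 0.13 (0.209).

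Ni-W was also compared directly with Ni-E and with HCl3, to ask whether levels differed between cells in nickel and cells long out of it, and between the 2 washed-out populations. In Ni-W against Ni-E, none of the 10 genes was called by DESeq2 or edgeR, against backgrounds of 11.7% called higher and 8.81% called lower among 15989 genes. The median of the members was -0.02 and that of all genes 0.02, and 3 members, CXCL8, IL1A and IL1B, passed the adjusted P alone. Of all 15989 genes, 3169 were higher and 3105 lower at the adjusted P with no fold threshold. At an unadjusted P under 0.05, CSF2 and CXCL1 were added to the 3 members, which makes 5 of 10. The share of all genes at that unadjusted P was not counted. Without Ni-E replicate 2, CCL2 (1.19, adjusted P 2.5e-13) and IL6 (0.80, 0.0152) were called higher in Ni-W than in Ni-E.

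In HCl3 against Ni-W, IL6 and CSF2 were called higher in HCl3, 2 of 10 against a background of 3.10% called higher and 1.66% called lower among 14956 genes. The log2 fold change was 0.62 ± 0.15 for IL6 (adjusted P 0.000838, 1.54-fold) and 0.60 ± 0.18 for CSF2 (0.00749, 1.52-fold), and the HCl3 libraries lay above both Ni-W libraries for each. Both calls depended on the setting, with IL6 called in 7 and CSF2 in 5 of 12 alternatives. IL6 was lost without Ni-W replicate 2 (0.45, adjusted P 0.0878), without HCl3 replicate 1 (0.70, 0.0576) and without HCl3 replicate 2 (0.54, 0.296), and CSF2 was lost without any 1 of the 4 libraries (adjusted P values of 0.125 and 0.117 without Ni-W replicates 1 and 2, and 0.183 and 0.51 without HCl3 replicates 1 and 2) and with the replicate block (0.122). LIF (0.36 ± 0.11, 0.00833) and CCL2 (-0.35 ± 0.10, 0.00503) passed the adjusted P at less than 1.5-fold.

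Levels per length ordered the genes in much the same way in all groups. In UT the mean RPKM was 162.3 for CCL2, 130.23 for CXCL8 and 50.245 for CXCL1, followed by IL1B (11.86), CSF2 (10.24) and CXCL2 (10.085), whose libraries overlapped each other. LIF (5.005) came next, then IL6 (3.755) and CXCL3 (3.285), which overlapped, and IL1A (0.895) was last. In HCl3, IL6 had a mean of 16.32 RPKM and stood above CSF2 (12.545) and CXCL2 (11.585) without overlap, whereas in UT both IL6 libraries were below all libraries of those genes. In Ni-E, CXCL8 (191.36) had a higher mean than CCL2 (159.105), but the CCL2 libraries enclosed those of CXCL8. IL1A was the lowest member in every group.

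Genes around each member were read from the same fits, because a change carried by a whole stretch of chromosome would also appear in its neighbours. Within 5 Mb of IL1A and IL1B, 27 to 30 genes with a mean normalised count of at least 50 had median log2 fold changes between -0.22 and -0.11 against UT, all below 0, while IL1A stood above its neighbours by 1.71 (Ni-E), 1.24 (Ni-W) and 1.73 (HCl3). Around IL6 the median was 0.04 (Ni-E), 0.36 (Ni-W) and 0.44 (HCl3), from 32 to 36 genes, and IL6 stood above it by 1.16, 1.07 and 1.61. Neighbours of CCL2 had a median of 0.24 in Ni-W, and in HCl3 against Ni-W they moved by -0.33, close to the -0.35 of CCL2 itself. No member overlapped another listed gene.

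**Figure D3:**
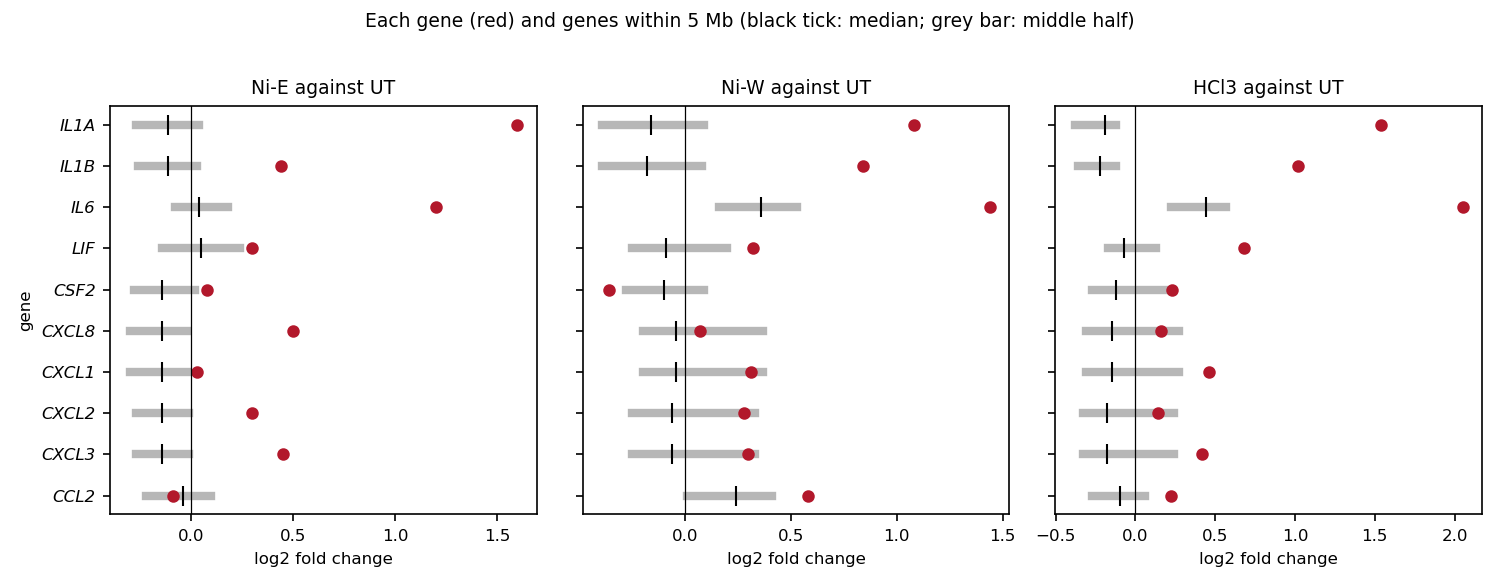
Log2 fold change against UT (horizontal axis) of each gene in red, with the median (black tick) and interquartile range (grey bar) of the genes within 5 Mb. IL1A, IL1B and IL6 lie to the right of the grey bar in all 3 panels, and the bar of IL6 is itself to the right of 0 in Ni-W and HCl3.

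Few other genes of these clusters were expressed. None of the 7 other genes of the IL-1 cluster on chromosome 2, among them the IL-1 receptor antagonist IL1RN at 0 RPKM in every library, had enough reads to be tested. Of the 9 other genes of the CXC cluster on chromosome 4, 3 to 4 were tested in a comparison, and CXCL6, another neutrophil attractant, was called in Ni-W and HCl3. Its RPKM was 5.52 and 4.13 (UT), 1.84 and 6.58 (Ni-E), 22.34 and 18.95 (Ni-W), and 17.56 and 15.64 (HCl3). Both washed-out groups lay above all other libraries, with log2 fold changes of 2.05 ± 0.17 (adjusted P 3.65e-30) and 1.72 ± 0.17 (3.11e-22). CXCL10 and CXCL11 of that cluster were also called in HCl3, at low counts, and CXCL11 was tested against UT in HCl3 only. Of the 5 other genes of the CC cluster on chromosome 17, none was tested in Ni-E or Ni-W and none of the 2 tested in HCl3 was called.

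The genes whose profile over the 8 libraries lay nearest to a member were found from the root mean square distance of centred log2(RPKM + 0.1) values, among 11313 genes, for the members whose group means spanned at least 1 on that scale. For IL1A they were DDIT4, DGCR6 and HAPLN3 (distance 0.19 each), for IL1B they were ADA (0.07), BTBD2 (0.07) and RNASET2 (0.08), and for IL6 they were ITGB4 (0.21), ISG20 (0.21) and AIF1L (0.24). DDIT4, a stress-induced inhibitor of mTOR, had mean RPKM of 9.36 (UT), 33.92 (Ni-E), 18.23 (Ni-W) and 26.09 (HCl3). The group means of the other 7 members spanned between 0.33 and 0.72.

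Genes that act with the cytokines were read from lists, whose counts stand beside the same backgrounds as above (3.75, 10.9 and 11.1% of all genes called higher in Ni-E, Ni-W and HCl3) and whose median log2 fold changes stand beside -0.00, 0.01 and 0.01. Counts at an unadjusted P have no such background, as that share of all genes was not counted. At the adjusted P alone, 880 of 14478 genes were higher and 799 lower in Ni-E. In HCl3, 2694 of 15766 were higher and 2251 lower. Of 25 receptors and decoys listed, DESeq2 and edgeR called 0 of the 16 tested in Ni-E, where 2 had an unadjusted P under 0.05, and 6 of 17 were called higher in Ni-W and 6 of 17 in HCl3, with none lower and medians of 0.17, 0.38 and 0.54. OSMR, the oncostatin M receptor that pairs with gp130, stood at 23.08 and 23.57 RPKM (UT), 24.55 and 24.71 (Ni-E), 42.08 and 44.06 (Ni-W), and 43.95 and 42.16 (HCl3). Its log2 fold change was 0.87 ± 0.10 in Ni-W (adjusted P 2.91e-16), 0.86 ± 0.09 in HCl3 (2.79e-19) and 0.84 ± 0.09 in Ni-W against Ni-E (1.33e-18). ACKR3, an atypical chemokine receptor, went from 0.26 and 0.18 RPKM (UT) to 4.26 and 3.99 (Ni-W) and 4.28 and 5.1 (HCl3), with log2 fold changes of 4.17 ± 0.35 and 4.34 ± 0.34. TNFRSF1B, a receptor of TNF, was called in Ni-W alone (1.84 ± 0.37, adjusted P 1.02e-05), and was lower in HCl3 than in Ni-W (-1.12 ± 0.30, 0.00262), and IL22RA1, a receptor subunit for IL-22, was called in HCl3 (1.05 ± 0.31, 0.00304). IL1R1, the signalling receptor of IL-1, stood between 0.39 and 0.59 RPKM in all libraries. IL6ST and LIFR were not called in any comparison.

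Of 30 NF-kB signalling genes, 2 were called higher and 2 lower in Ni-E, 2 higher in Ni-W and 4 higher in HCl3, with medians of -0.04, -0.06 and 0.07. RELA, NFKB1, NFKBIA and TNFAIP3, the NF-kB subunits p65 and p50 and the inhibitors that NF-kB itself induces, were not called in any of the 5 comparisons. Against UT, NFKBIA (0.36 ± 0.10, adjusted P 0.00284) and TNFAIP3 (0.33 ± 0.11, 0.00941) passed the adjusted P in HCl3 and RELA (-0.28 ± 0.10, 0.0301) in Ni-W, each at less than 1.5-fold. RELA was between 34.87 and 45.05 RPKM and NFKB1 between 14.57 and 21.33. IRAK3, an inactive kinase that restrains IL-1 receptor signalling, stood at 0.42 and 0.37 RPKM (UT), 0.15 and 0.14 (Ni-E), 0.81 and 0.74 (Ni-W), and 0.84 and 0.79 (HCl3). It was below UT in Ni-E (a log2 change of -1.52 ± 0.38, adjusted P 0.00158) and above it in Ni-W (0.94 ± 0.26, 0.0014) and HCl3 (0.98 ± 0.24, 0.000419). IRAK4, the kinase next to MYD88, was also lower in Ni-E (-0.68 ± 0.17, 0.00129), and TLR3, a sensor of double-stranded RNA, was higher in Ni-E (1.38 ± 0.26), Ni-W (1.05 ± 0.25) and HCl3 (0.75 ± 0.26). TLR4, the receptor of bacterial lipopolysaccharide, was higher in Ni-E (0.86 ± 0.28) and HCl3 (0.95 ± 0.25) and stood at -0.12 ± 0.30 in Ni-W.

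**Figure D4:**
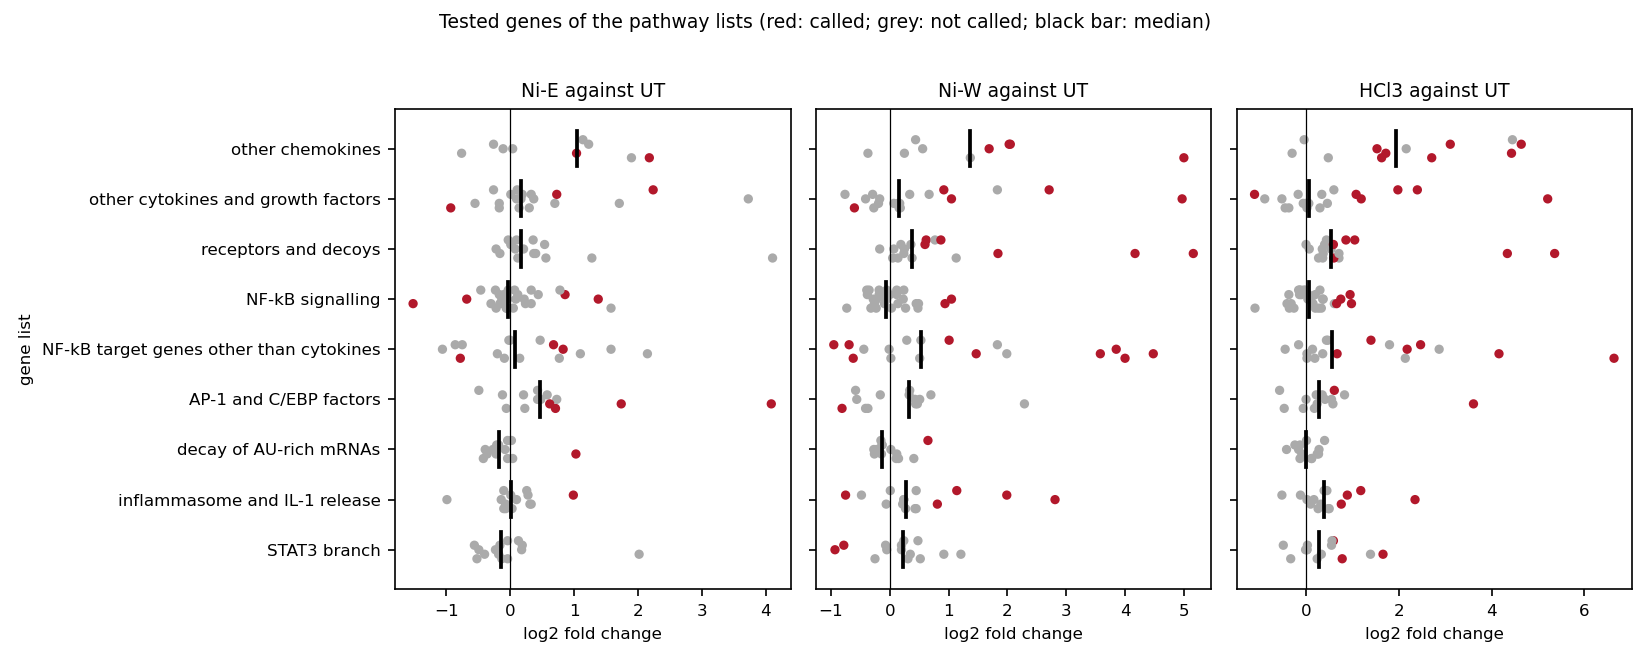
Log2 fold change against UT (horizontal axis) of the tested genes of 9 lists, with called genes in red, other genes in grey and the list median as a black bar. Points far to the right include genes at or under 3 reads in both UT libraries, whose fitted values are not measured folds, and the NF-kB signalling genes gather around 0 in all 3 panels.

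Among 20 genes known as NF-kB targets other than cytokines, 2 of 16 tested were called higher and 1 lower in Ni-E, 6 higher and 3 lower of 17 in Ni-W, and 6 higher of 18 in HCl3, with medians of 0.07, 0.53 (0.51 with genes at the floor set to their bound) and 0.57. ICAM1, an adhesion molecule for leukocytes, was called in Ni-E only, at 115.46 and 94.3 RPKM (UT), 158.32 and 230.14 (Ni-E), 113.03 and 100.78 (Ni-W), and 118.24 and 122.63 (HCl3). Ni-E exceeded UT by log2 0.83 ± 0.15 (adjusted P 5.23e-06), and Ni-W was below Ni-E by log2 -0.85 ± 0.13 (1.81e-09). SAA1, an acute phase protein, stood at 19.37 and 8.45 (UT), 28.53 and 100.03 (Ni-E), 215.21 and 123.5 (Ni-W), and 57.72 and 72.2 (HCl3). Its UT and Ni-E libraries differed by more than 2-fold within a group, as did those of SAA2, a near-identical copy. Reads that fit both genes equally had been removed as reads with several alignments, so both counts are uncertain to that extent. SAA1 was called in Ni-W (3.58 ± 0.68, adjusted P 2e-06) and HCl3 (2.18 ± 0.58, 0.0011), and SAA2 likewise (3.85 ± 0.65 and 2.47 ± 0.61). C3, the central complement component, was called in Ni-W (1.47 ± 0.15, 4.05e-20), and MMP1, a collagenase, rose from 0.37 and 0.45 in UT to between 7.06 and 10.03 in the washed-out libraries. PTGS2, which encodes cyclooxygenase-2, had 0 reads in both UT libraries and 30 and 15 reads in HCl3, at least 6.00-fold higher when 3 reads per library are taken as the floor (adjusted P 0.000818). Against UT it was tested in HCl3 only, and it is among the 6 genes of this list called there.

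Of 14 AP-1 and C/EBP factors, 4 were called higher in Ni-E, 1 lower in Ni-W and 2 higher in HCl3, with medians of 0.46, 0.33 and 0.29, and in Ni-W against Ni-E 1 was called higher and 6 lower. FOS stood at 0.41 and 0.44 RPKM (UT), 1.48 and 1.44 (Ni-E), 0.54 and 0.64 (Ni-W), and 0.54 and 0.5 (HCl3). The Ni-E libraries were the highest and the UT libraries the lowest, with a log2 fold change in Ni-E of 1.74 ± 0.40 (adjusted P 0.000556). EGR1, an immediate early gene, was higher in Ni-E (0.71 ± 0.16) and lower in Ni-W (-0.81 ± 0.19), JUNB was higher in Ni-E (0.62 ± 0.16), and FOSL2 was higher in HCl3 (0.61 ± 0.09). FOSL1 was not called in any comparison. CEBPB, first described as a factor that binds the IL6 promoter, passed the adjusted P in Ni-E (0.48 ± 0.13), Ni-W (0.43 ± 0.12) and HCl3 (0.55 ± 0.14), each under 1.5-fold.

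Of 13 genes that act in the decay of AU-rich mRNAs, a class to which many cytokine transcripts belong, 1 was called higher in Ni-E, 1 higher in Ni-W and, by DESeq2 and edgeR, 0 in HCl3, where 6 had an unadjusted P under 0.05, with medians of -0.18, -0.13 and 0.01. ZFP36, which encodes tristetraprolin, was not called in any comparison and stood between 4.99 and 6.21 RPKM in all libraries. The genes called were DUSP1, a phosphatase that shuts off p38 kinase, in Ni-E (1.03 ± 0.14) and ZC3H12A, which encodes the IL6 mRNA nuclease Regnase-1, in Ni-W (0.65 ± 0.17).

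**Figure D5:**
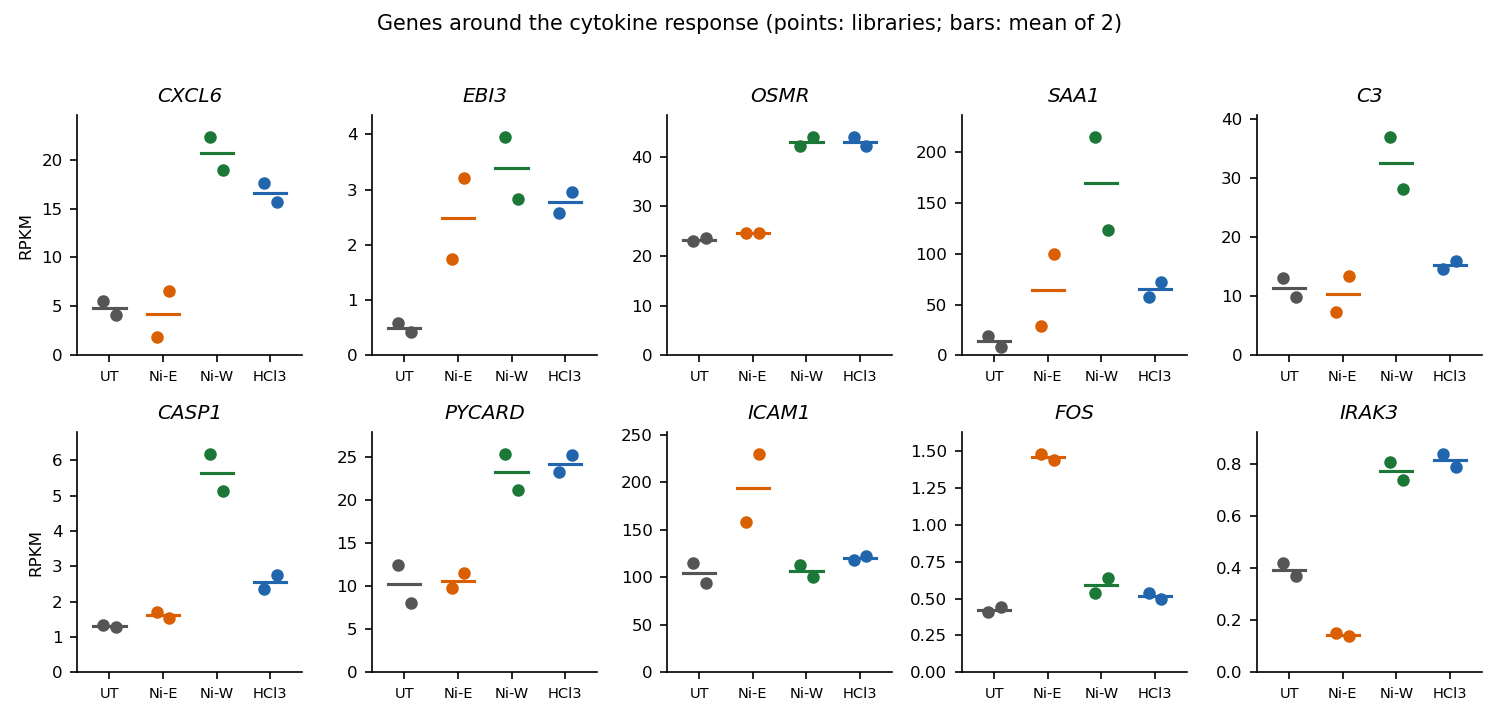
RPKM (vertical axis, from 0, a separate scale for each gene) of 10 genes that act with the cytokines, with points for single libraries and bars for the mean of the 2. ICAM1 and FOS are highest in Ni-E, OSMR, CXCL6 and PYCARD are higher in Ni-W and HCl3, and SAA1, C3 and CASP1 are highest in Ni-W.

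The inflammasome is the protein assembly that activates caspase-1 and so releases IL-1 beta. Of 16 genes listed for it, 1 of 14 tested was called higher in Ni-E, 4 of 15 higher and 1 lower in Ni-W, and 4 of 15 higher in HCl3, with medians of 0.02, 0.27 and 0.39. CASP1, which encodes caspase-1, stood at 1.34 and 1.29 RPKM (UT), 1.72 and 1.54 (Ni-E), 6.18 and 5.12 (Ni-W), and 2.35 and 2.76 (HCl3). Its log2 fold change was 1.99 ± 0.27 in Ni-W (adjusted P 8.71e-12) and 0.89 ± 0.32 in HCl3 (0.0213), and HCl3 was below Ni-W (-1.10 ± 0.22, 1.28e-05), whereas IL1B was highest in HCl3. PYCARD, the adaptor ASC, was called in Ni-W (1.14 ± 0.21) and HCl3 (1.18 ± 0.20), as was NOD1, a sensor of bacterial cell wall (0.81 ± 0.21 and 0.76 ± 0.20). NLRP1, a sensor, was called in Ni-E (0.99 ± 0.21) and stood at 0.01 ± 0.23 in Ni-W.

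In the STAT3 branch, downstream of IL-6 and LIF, 0 of 14 genes were called in Ni-E by DESeq2 (1 by edgeR, and 4 at an unadjusted P under 0.05), 2 lower in Ni-W and 3 higher in HCl3, with medians of -0.15, 0.22 and 0.28. BCL3 (0.78 ± 0.15) and PIM1 (0.59 ± 0.13), both inducible by STAT3, were higher in HCl3. In Ni-W, JAK2 (-0.78 ± 0.17) and SOCS2 (-0.93 ± 0.29), a kinase and a suppressor of cytokine signalling, were lower than in UT.

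Other cytokines and chemokines were counted in the same way. Of 15 other chemokines, 2 of 9 tested were called higher in Ni-E, 4 of 9 in Ni-W and 7 of 12 in HCl3, none lower, with medians of 1.04, 1.37 and 1.94 (1.58 with genes at the floor set to their bound). The Ni-E median is the value of CXCL16. Above it lay CCL20, with 22 and 118 reads in Ni-E, and CCL5, CXCL10 and CXCL14, at few reads and not called. Below it lay CCL28 (0.04), CXCL5 (-0.11), CXCL6 (-0.26) and CCL26 (-0.76), none of them called. The HCl3 count and median cover genes that were not tested in Ni-E and Ni-W, so they cannot be set beside the other 2. CXCL11, with 1 and 0 reads in UT and 15 and 11 in HCl3, was tested against UT in HCl3 only, and called. CXCL16 was called in Ni-E (1.04 ± 0.20), and CCL5, which attracts T cells, rose in Ni-W (2.03 ± 0.71) and HCl3 (3.11 ± 0.55), to no more than 2.17 RPKM. Of 25 other cytokines, 19 were tested, and 2 were called higher and 1 lower in Ni-E, 4 higher and 1 lower in Ni-W, and 5 higher and 1 lower in HCl3, with medians of 0.17, 0.16 and 0.06. EBI3, a subunit of IL-27 and IL-35, was called in all 3 (2.24 ± 0.49 in Ni-E and 2.71 ± 0.42 in Ni-W, the lowest and highest of the 3), TNFSF10 (TRAIL) in Ni-W (1.05 ± 0.41) and HCl3 (1.19 ± 0.40), CTF1, which encodes cardiotrophin-1, in HCl3 (1.08 ± 0.29), and TSLP, an epithelial alarm cytokine, was lower in HCl3 (-1.11 ± 0.44).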

How the data were processed

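RNA-Seq libraries of BEAS-2B cells were grouped by GEO's labels (4 groups, 2 libraries each). The authors aligned reads to hg19 with STAR (version 2.4 per the submitters' processing notes), removed reads with several alignments and deposited whole-number counts per RefSeq gene and, from them, RPKM values. Whether counting used strand was not stated. Duplicated gene symbols numbered 0. Members, lists and rules were chosen with earlier results of these data known. Counts were tested pairwise with DESeq2 1.42.0 (Wald test, two-sided, Benjamini-Hochberg over all genes tested) in R 4.3.3, as in the study's methods, with calls at an adjusted P value under 0.05 and at least 1.5-fold. With 2 against 2 libraries an exact permutation test cannot go below P = 0.333, so none is given. Alternatives were edgeR 4.0.16 (quasi-likelihood), limma 3.58.1 on log2(RPKM + 1), TMM size factors, a mean count of at least 10, a single fit of all 8 libraries, no fold threshold or 2-fold, each library left out, the replicate suffix as a block, and removal of GC and length trends (GC content known for 98.3% of 13856 genes), and the crossed block was added after seeing the data. When a library was left out, the remaining one was assumed to vary like the other groups. The scripts were tested on simulated data. In each pathway list, up to 4 genes with the largest change against UT among called genes with a mean normalised count of at least 50 are named, besides fixed regulators. Promoter motifs and figures (matplotlib 3.10.9) were computed in Python 3.11.15. Columns of per-library values without a sample numbered 0. Chromatin data were not analysed here.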

Additional observations from a re-analysis of the deposited data

Results flagged for a closer look

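HCl3 set directly against Ni-W, 2 groups with the same treatment description, gave the test of whether their changes against UT differ. Listed are the members and named pathway genes called in it with DESeq2 at a mean normalised count of at least 50. Besides the fixed regulators, pathway genes were named for a large change in any 1 of the 3 comparisons with UT. How many of them were called here therefore cannot be set beside the shares of all genes. IL6 (log2 fold change 0.62) and CSF2 (0.60) were higher in HCl3, and so were CCL5 (1.12), TLR4 (1.08), SOCS2 (0.92) and EGR1 (0.75). SAA1 (-1.39), SAA2 (-1.37), TNFRSF1B (-1.12), C3 (-1.11) and CASP1 (-1.10) were lower in HCl3. Called at lower counts were CXCL10 (2.31 ± 0.84, adjusted P 0.0375) and PTGS2 (30 and 15 reads in HCl3 against 3 and 1 in Ni-W, adjusted P 0.0119), both higher in HCl3. LCN2, with 12 and 16 reads in HCl3 against 54 and 45 in Ni-W, was called lower in HCl3. In this comparison 3.10% of the genes tested were called higher and 1.66% lower. The call for CASP1 stayed under every alternative setting, while those for C3, SAA1, SAA2, TNFRSF1B, TLR4, SOCS2, EGR1 and CCL5 were each lost with limma on log2(RPKM + 1), and IL6 and CSF2 likewise. Fibroblast and smooth muscle markers summed to 463.3 to 487.1 RPKM in HCl3 and 245.4 to 270.3 in Ni-W (COL1A1 was called higher in HCl3, at 0.92), and their part in these differences was not tested. No group had the 4 libraries needed to look for a library far from the others.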

How the results depend on the processing

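For HCl3 against UT the number of members called kept within 1.5 times the reported 4 in every alternative, the crossed block included. For Ni-E against UT it was 2, and it became 1 when genes under a mean of 10 reads were dropped, with the replicate block, alone or with GC and length trends removed, and 0 with limma; leaving out single libraries gave 1 to 3. For Ni-W against UT it was 3, and 5 with no fold threshold, and 2 to 4 with single libraries left out. For Ni-W against Ni-E it was 0, and 3 with no fold threshold, 1 with GC and length trends removed, and 0 to 2 with single libraries left out. For HCl3 against Ni-W it was 2, and 1 with all 8 libraries in a single fit, 4 with no fold threshold, 0 at 2-fold or with limma, 1 with the replicate block, alone or with GC and length trends removed, and 0 to 1 with single libraries left out. With no fold threshold, 2763 of 15826 genes were called higher and 2155 lower in Ni-W against UT. In Ni-W against Ni-E these were 3169 and 3105 of 15989, and in HCl3 against Ni-W 1264 and 1212 of 14956. With limma, 0 of 17794 genes were called in Ni-E against UT, so that loss was not particular to the members. Apart from fewer libraries, stricter or looser thresholds and fewer genes, the cause of the changed numbers of members was not tested. No called value changed sign, and 21 uncalled values of members did so under some alternative. The replicate suffix is only a shared label ending. Deviations of libraries with the same suffix correlated at r = -0.103 in Ni-E against UT, 0.212 in Ni-W against UT, -0.145 in HCl3 against UT, -0.0982 in Ni-W against Ni-E and -0.0515 in HCl3 against Ni-W across genes. With the crossed block, 2 members were called in Ni-E and 4 in HCl3. Depth is a limit for IL1A, with 69 to 351 reads per library, and CXCL3, with 107 to 260. Counts of pathway and cluster genes called against UT are small, and they moved by over 1.5 times in 5 of 72 counts with edgeR, 9 of 72 with GC and length trends removed, 14 of 72 with the replicate block, and 114 of 504 over these settings and the left-out libraries together.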
